A study of Mus musculus with 18 samples.

Results

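The effect of apical resection that was common to both ages of surgery was measured in cardiac fibroblasts of neonatal mice. It was taken as the difference between 6 resected and 6 sham libraries collected 3 days after surgery, with the age at surgery, postnatal day (P) 2 or P10, as a block. These are 12 of the 18 libraries of the series, chosen by their labels alone, and all genes entered. The other 6 libraries came from un-manipulated P2 and P10 hearts and are given only as a background. The study asked which fibroblast genes go with the regeneration seen after surgery at P2 and lost after surgery at P10.

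All pups carried 1 allele of MerCreMer at Tcf21 and 1 mTmG reporter allele at Rosa, and all received tamoxifen at P1, the controls included. Cre in Tcf21-expressing cells switches the reporter from membrane tdTomato to membrane GFP, so that fibroblasts labelled at P1 and their progeny are green. The P2 groups were therefore P5 at collection and the P10 groups P13, with 3 libraries in each of P2 sham, P2 resected, P10 sham and P10 resected. In a sham operation the chest was opened and the heart exposed but not cut. The sort took GFP+ cells of the apical part of the ventricles, and not of the cut apex alone. The paper suspects that the many fibroblasts of remote tissue hid changes in a small responding subset. Cells that expressed no Tcf21 at P1 stay unlabelled and are lost in the sort. Pup sex and the number of hearts per library are not given in the sources used here, so a p-value measures the spread between these libraries, which may be technical. In bulk RNA, fewer cells of a type and less RNA per cell cannot be told apart.

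Fibroblasts build the collagen matrix of the heart. After injury they are activated, make provisional matrix proteins such as osteopontin, tenascin-C and thrombospondins, and respond to transforming growth factor beta (TGF-beta), which drives collagen synthesis and contractile genes. Matricellular proteins are secreted matrix proteins that act on cells rather than bear load. Macrophages that enter the wound also make osteopontin, so that its transcript is not private to fibroblasts.

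The libraries held 14297349 to 22980554 counts, and a level is a CPM value, its count divided by the TMM-adjusted library total. The sorted cells carried fibroblast markers in every library. Tcf21 lay between 229 and 445 CPM in sham and between 201 and 339 CPM in resected libraries, and Pdgfra between 255 and 873 CPM and between 350 and 608 CPM. Libraries of the same group also differed from each other. After each gene was centred within its age, principal component 1 held 44.5% of the variance of the 500 most variable genes, and its highest scores were those of P2 sham replicate 1 (16.2) and P10 sham replicate 1 (11.2). The other 4 sham libraries scored -15.1, -10.7, -11.5 and -9, and the 6 resected libraries lay between -2.89 and 9.3. High scores went with Il6, Nr4a1 and Fosb and low scores with the macrophage genes C1qa, C1qb and Csf1r. Nr4a1, for example, stood at 834 CPM in P2 sham replicate 1 and at 59 and 47.3 CPM in the other P2 sham libraries. On that component the surgeries differed by 0.623 SD (two-sided exact permutation test within age, p = 0.32, 6 libraries a side), and on component 3, with 12% of the variance, by 1.36 SD (exact permutation p = 0.015). With all genes tested in place of these 500, the difference was 0.491 SD on component 1 (exact permutation p = 0.455). On component 3 it was 1.47 SD (exact permutation p = 0.01). From log2 CPM in place of rlog values, component 1 held 25.1% of the variance. The surgeries differed on it by 1.23 SD (exact permutation p = 0.045). On component 3 from log2 CPM they differed by 0.618 SD (exact permutation p = 0.33). Components of the same number from rlog and log2 CPM values need not be the same axis. The number of genes detected also differed between the surgeries, as given next, and its part in component 3 from rlog values was not tested. The inactivation transcript Xist was at 0 in 8 of the 12 libraries and between 27.5 and 273 CPM in the other 4, which are 3 sham libraries and 1 resected library.

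**Figure D1:**
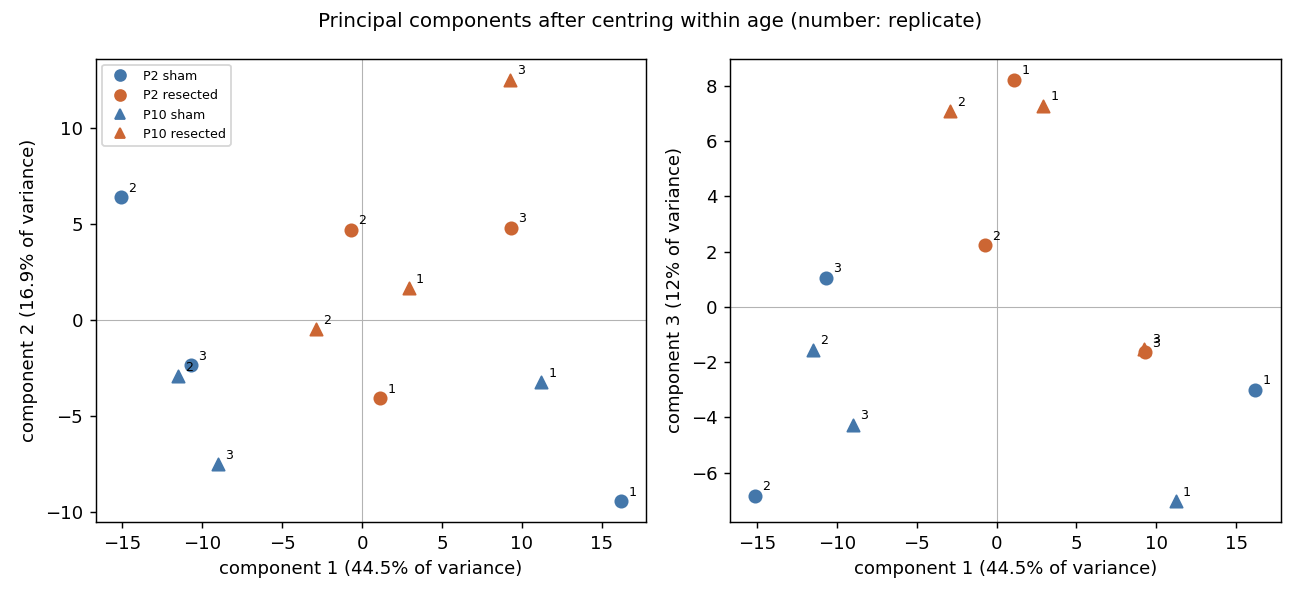
Scores of the 12 libraries on principal component 1 against component 2 and against component 3, after centring each gene within its age; each point is 1 library, coloured by surgery with the shape giving the age. The sham libraries numbered 1 of both ages lie at the high end of component 1, at 16.2 and 11.2, and the other 4 sham libraries at its low end.

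More genes were detected after resection than after sham. With every library thinned to 14297349 counts, P2 resected libraries held between 18852 and 20046 genes with at least 1 count and P2 sham libraries between 15999 and 17058. At P10 the ranges were 17066 to 19245 and 16004 to 16173. The groups did not overlap at either age, and the means were 18640 ± 1250 and 16360 ± 471 genes (SD, n = 6 each, exact permutation p = 0.005, the smallest the 400 arrangements can give, and 0.0175 after Benjamini-Hochberg adjustment over 7 library measures). Genes with at least 5 counts differed by 859.4 (exact permutation p = 0.005). This difference moved with the surgery in the same direction as the low-abundance genes below, and its part in them was not tested.

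**Figure D2:**
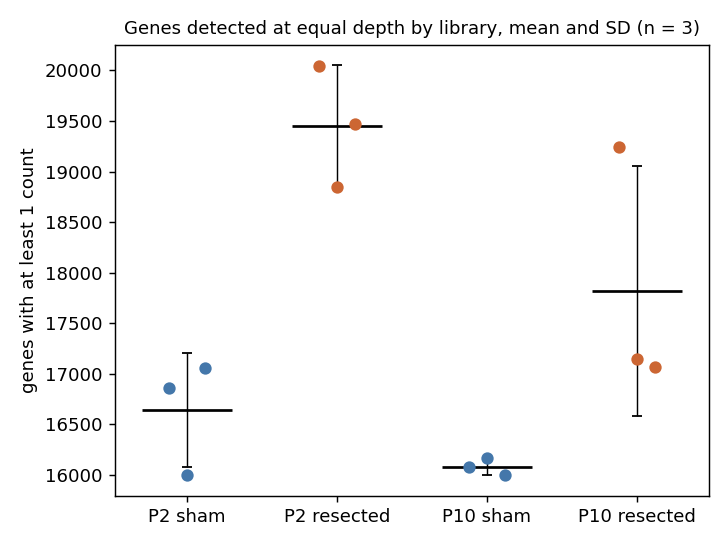
Genes with at least 1 count in each of the 12 libraries after thinning to equal depth, by age and surgery; points are libraries and bars the mean ± SD of 3. Every resected library lies above every sham library of its age, with P2 resected at 18852 to 20046 genes and P10 sham at 16004 to 16173.

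Of 55453 gene symbols, 27726 had a count in these libraries and 15379 passed the filter and were tested. No gene was called at an adjusted p under 0.05 by edgeR's quasi-likelihood test (0%), and the smallest adjusted p was 0.14, for Spp1. At an unadjusted p under 0.05, 509 genes were higher after resection (3.31%) and 215 lower (1.4%). DESeq2 called 52 genes higher (0.343%) and 2 lower (0.0132%) of the 15181 it gave an adjusted p, and limma's voom with quality weights called 0 with 2663 genes at an unadjusted p under 0.05. In 92 genes all 3 resected libraries lay above all 3 sham libraries at both ages (0.598%), and in 31 they all lay below (0.202%). In 34 genes the surgeries did not overlap at either age but lay in opposite directions at the 2 ages. The 54 genes called by DESeq2 include 31 of those that did not overlap, a measure from the same 12 libraries. They include 19 with a mean under 1 CPM, as had 2269 of all genes tested. They also include 11 with no count in any sham library, which passed the filter through their resected counts alone. The 5127 genes of lowest abundance (0.155 to 6.4 CPM) held 204 of the 509 higher genes and 27 of the 54 DESeq2 calls, against 143 and 10 in the 5126 genes of highest abundance. With each library left out in turn, DESeq2 kept 17 of its 54 calls every time, among them Spp1, Ptprm, Hp, Ccn2, Thbs4, Spire2, Gm37558, Marco, Gpr176, Atp8a1, Inf2, Timp1, Pmepa1, Pdgfc, Gbp4 and D730005E14Rik. The median log2 difference of all genes tested was 0.02.

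The call depended on a pair of sham libraries. Without both sham libraries numbered 1, a choice made after their scores were seen, edgeR called 1016 genes, 605 of them higher, and DESeq2 called 2199, among them all 54. The 4 sham libraries left are those at the low end of component 1, so that fit sets 6 resected libraries against sham libraries of one kind. In it 2234 of 15741 genes were higher at an unadjusted p under 0.05 and 1690 lower. Of 15379 genes, voom had 1728 higher and 935 lower, and the fit with the genes detected as a covariate 247 and 176. Without P2 sham replicate 1, 1894 genes passed in either direction. List counts from these fits are to be read beside these numbers, not beside 3.31%.

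Where a promoter was listed by RefSeq for GRCm38.p6 (250 bases before to 50 after the start, first entry of each gene), it was searched for 6 motifs of factors that act in activated or dividing cells. TEAD factors, the partners of YAP, bind GGAATG, read as CATTCC on the other strand. These letters stood in 8 of the 31 matched genes called higher by DESeq2 (25.8%: Frem2, Inf2, Kctd12, Ngef, Pdgfc, Spire2, Thbs4 and Timp1), in 12.2% of the 11190 matched genes tested and in 14.6% of all promoters in the table. The AP-1 letters TGANTCA, which read the same on both strands, stood in 3 (9.68%: Gpnmb, Mmp3 and Olr1), against 4.91% of genes tested and 7.93% of all promoters. The hypoxia letters ACGTG or CACGT stood in 12.9% of the higher genes and 25.4% of genes tested. The CHR letters of cell cycle promoters, TTTGAA or TTCAAA, stood in 12.9% and 11.8%, the E2F letters TTTCCCGC or TTTGGCGC, on both strands, in 0% and 3.04%, and the serum response motif in 3.23% and 1.34%. In the lists below the TEAD letters stood in 4 of 15 matched matricellular genes (26.7%), in 1 of 16 fibrillar collagen and processing genes (6.25%) and in 0 of 13 TGF-beta genes. The same letters stood in 7 of 15 YAP and TEAD targets (46.7%) and in 7 of 47 G2 and M phase genes (14.9%). Shares over 31 promoters are a description, and a match is not a bound site. The stretches around the match in 3 matrix or growth factor genes and in the matrix protease gene Mmp3 are printed 5′ to 3′ on the strand of the gene with the matched letters in capitals, because they are secreted proteins described below that were called by DESeq2 and had a promoter entry with a TEAD or AP-1 match. Spp1 and Ccn2 had no entry in the table. Thbs4 has a further TEAD match, 192 bases before the start, which overlaps the one in capitals and is left in lower case.
Thbs4, TEAD letters, chr13:92794950-92795068, minus strand, with the match starting 197 bases before the start: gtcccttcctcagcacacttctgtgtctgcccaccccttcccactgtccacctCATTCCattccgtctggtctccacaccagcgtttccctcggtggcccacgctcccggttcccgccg
Timp1, TEAD letters, chrX:20869916-20869984, plus strand, 247 bases before the start: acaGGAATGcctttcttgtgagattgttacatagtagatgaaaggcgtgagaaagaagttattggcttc
Pdgfc, TEAD letters, chr3:81036219-81036344, plus strand, 137 bases before the start: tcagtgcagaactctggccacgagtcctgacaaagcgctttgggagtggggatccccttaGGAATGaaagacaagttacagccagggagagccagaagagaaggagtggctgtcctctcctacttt
Mmp3, AP-1 letters, chr9:7445716-7445821, plus strand, 46 bases before the start: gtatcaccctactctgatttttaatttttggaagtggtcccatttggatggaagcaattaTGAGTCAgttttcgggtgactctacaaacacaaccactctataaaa

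Of the 24 matricellular and provisional matrix genes tested, 7 were higher at an unadjusted p under 0.05 and none lower, beside 3.31% and 1.4% of all genes, and DESeq2 called 5 of them higher: Spp1, Ccn2, Thbs4, Tnc and Ccn4. The count of 7 was 3 with the genes detected as a covariate, 11 without P2 sham replicate 1, 12 with voom and 16 without both sham libraries numbered 1. In the last of these fits 2234 of all 15741 genes were higher. The median log2 difference of the list was 0.50 (0.53 at P2 and 0.62 at P10).

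Spp1 (chromosome 5, 104435118 to 104441050, plus strand, GRCm38) encodes osteopontin. In sham libraries it lay at 0, 2.16 and 0.13 CPM at P2 and at 0.298, 1.74 and 0 CPM at P10. In resected libraries it lay at 36.4, 123 and 18.3 CPM at P2 and at 107.5, 210 and 26.1 CPM at P10. The lowest resected library was above the highest sham library at both ages, and at baseline the gene lay between 0 and 4.42 CPM. The log2 difference was 6.83 ± 1.01 (SE), with an adjusted p of 0.14 by edgeR and 3.44e-05 by DESeq2. The edgeR adjusted p ran from 1.37e-18 with no filter on low counts to 0.528 with the genes detected as a covariate. An overlapping annotated gene on the same strand covers 18.8% of its exons. Under the counting options given, reads in that stretch overlap 2 genes and are assigned to neither.

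Thbs4 (chromosome 13, 92751590 to 92794818, minus strand) encodes thrombospondin-4, a matrix protein induced in stressed heart. It lay between 0.505 and 11 CPM in sham libraries (median 6.52) and between 16.3 and 87.2 CPM in resected libraries (median 47.6). No resected library overlapped a sham library, while baseline libraries lay between 5.07 and 19.7 CPM. The log2 difference was 3.02 ± 0.57 (edgeR adjusted p = 0.246, from 2.01e-09 to 1 over its 23 fits; DESeq2 adjusted p = 2.19e-05).

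Ccn2 (chromosome 10, 24595442 to 24598683, plus strand), also called connective tissue growth factor, is a common target of TGF-beta and of YAP with TEAD. In sham libraries it lay at 226, 163 and 163 CPM at P2 and at 272, 313 and 252 CPM at P10. In resected libraries it lay at 172, 470 and 511 CPM at P2 and at 768, 617 and 837 CPM at P10. P2 resected replicate 1 fell within the P2 sham range, and the other 5 lay above every sham library. The log2 difference was 1.24 ± 0.23 (edgeR adjusted p = 0.246, from 8.54e-05 to 1 over its 23 fits; DESeq2 adjusted p = 0.000575). Without P2 resected replicate 1 it was the only gene called by edgeR, with the smallest adjusted p of 0.00555. An antisense gene covers 23.2% of its exons and counting ignored strand.

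Tnc, which encodes the wound protein tenascin-C, lay between 39 and 342 CPM in sham libraries (median 74.3) and between 114 and 646 CPM in resected libraries (median 195). The groups overlapped at P2, where sham replicate 1 stood at 342 CPM and resected replicate 1 at 191 CPM, and did not at P10, with 39 to 49.9 CPM in sham and 114 to 199 CPM in resected libraries. Its log2 difference was 1.52 ± 0.34 (edgeR adjusted p = 0.324, DESeq2 adjusted p = 0.00451, called in 10 of 12 fits with a library left out). Ccn4, a Wnt-induced matricellular gene, was higher by 0.99 ± 0.25 (DESeq2 adjusted p = 0.0477, called in 2 of 12 fits with a library left out, and 0.0641 with the replicate block). That block joins libraries by their number, which does not pair them. Here and below, a call lost with it is given as a value only. Postn, the activated-fibroblast gene periostin, did not separate the surgeries, with 2928 to 17290 CPM in sham and 4552 to 16890 CPM in resected libraries and a log2 difference of 0.12 ± 0.25 (edgeR unadjusted p = 0.631), which turned to -0.01 without P2 sham replicate 2.

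**Figure D3:**
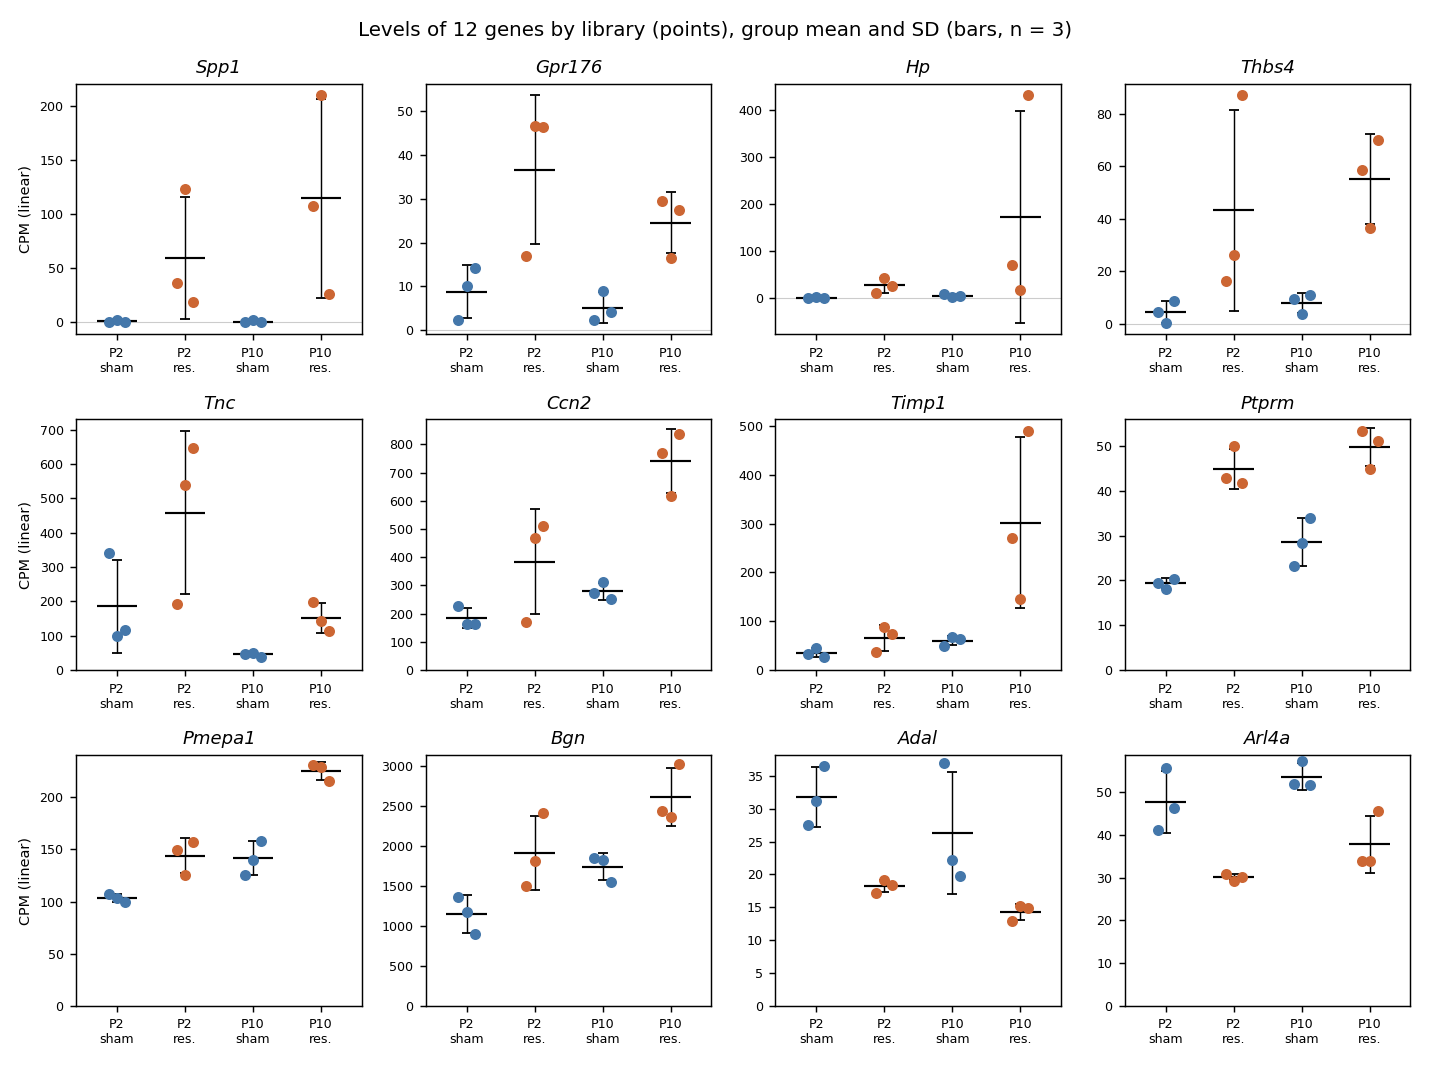
Levels in CPM on a linear scale of 12 genes in the 12 libraries by age and surgery; points are libraries (sham in blue, resected in orange) and bars the mean ± SD of 3. Spp1, Thbs4, Hp and Gpr176 lie higher in every resected library than in every sham library of the same age, and Adal and Arl4a lie lower.

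Of 24 fibrillar collagens and processing enzymes tested, 12 were higher at an unadjusted p under 0.05 and none lower, beside 3.31% and 1.4% of all genes. Neither edgeR nor DESeq2 called any of them, and the median log2 difference was 0.39 (0.49 at P2 and 0.32 at P10). Col1a2 lay between 5478 and 10620 CPM in sham libraries (median 8885) and between 7833 and 15190 CPM in resected libraries (median 12940), which overlap at the P2 resected replicate 1. Its log2 difference was 0.61 ± 0.19 (edgeR unadjusted p = 0.00625, adjusted p = 0.732). Col1a1 was higher by 0.69 ± 0.25, the crosslinking enzyme Lox by 0.97 ± 0.35, and the lysyl hydroxylase Plod3 by 0.43 ± 0.14. The count of 12 held between 11 and 15 with each library left out. It was 3 with the genes detected as a covariate, a fit in which 247 of all genes were higher. The proteoglycan Bgn, biglycan, lay between 895 and 1851 CPM in sham and between 1501 and 3029 CPM in resected libraries, and was higher by 0.66 ± 0.16 (DESeq2 adjusted p = 0.0301, called in 3 of 12 fits with a library left out and lost with the replicate block, at 0.0768). The basement membrane list had 2 of 17 genes higher, Col18a1 and Lama5, and 7 without P2 sham replicate 1, 13 with voom and 14 without both sham libraries numbered 1. Col18a1, the source of endostatin, was higher by 1.38 at P2 and 0.54 at P10 (DESeq2 adjusted p = 0.036, called in 6 of 12 fits with a library left out).

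TGF-beta ligands, receptors and targets included 9 of 22 genes higher at an unadjusted p under 0.05 and none lower, beside 3.31% and 1.4% of all genes (median 0.37, with 0.52 at P2 and 0.17 at P10). Pmepa1, a TGF-beta-induced inhibitor of the same pathway, lay at 107, 103 and 99.6 CPM in P2 sham and at 150, 125 and 157 CPM in P2 resected libraries. At P10 it lay at 126, 140 and 158 CPM in sham and at 231, 229 and 215 CPM in resected libraries. The surgeries did not overlap at either age, and the log2 difference was 0.58 ± 0.13 (edgeR adjusted p = 0.324, from 0.171 to 1 over its 23 fits; DESeq2 adjusted p = 0.00114). The latent TGF-beta binding gene Ltbp2 was higher by 1.26 ± 0.36 and the inhibitory Smad7 by 0.88 ± 0.33. The count of 9 was 5 without P2 resected replicate 3 and 3 with the genes detected as a covariate. Of 22 YAP and TEAD targets Ccn2 alone passed an unadjusted p of 0.05, and 6 were higher at that p without P2 sham replicate 1, 8 with voom and 10 without both sham libraries numbered 1.

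Matrix protease genes and their inhibitors had 4 of 22 genes higher and none lower, beside 3.31% and 1.4% of all genes, with a median of 0.27. The count was 2 without P2 resected replicate 3, 9 with voom and 10 of 23 without both sham libraries numbered 1, and the median was -0.05 with the genes detected as a covariate. Timp1 (chromosome X, 20870166 to 20874735, plus strand), the tissue inhibitor of metalloproteinases, lay at 33.6, 45.6 and 26.7 CPM in P2 sham and at 36, 87.7 and 74.6 CPM in P2 resected libraries. At P10 it lay at 49.2, 68.1 and 62.4 CPM in sham and at 270, 145 and 490 CPM in resected libraries. The groups did not overlap at P10, and at P2 the first resected library lay among the sham libraries. The log2 difference was 1.62 ± 0.36 (edgeR adjusted p = 0.324, from 9.92e-06 to 0.929 over its 23 fits; DESeq2 adjusted p = 0.00225), with 0.90 at P2 and 2.33 at P10, and the ages differed by 1.43 (edgeR unadjusted p = 0.0302, adjusted p = 1). Mmp3, stromelysin, lay at 0 in all 3 P2 sham libraries and at 0.982 to 1.86 CPM in P2 resected libraries; at P10 it lay between 3.23 and 17.3 CPM and between 11 and 135 CPM. P10 resected replicate 3 held 61.6% of its counts in the 12 libraries, and the log2 difference was 3.41 ± 0.80 (edgeR adjusted p = 0.379, DESeq2 adjusted p = 0.00788, and 0.179 with all 18 libraries in the fit).

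Of 19 myofibroblast contractile genes, 5 were higher at an unadjusted p under 0.05 and none lower, beside 3.31% and 1.4% of all genes (median 0.31). Neither edgeR nor DESeq2 called any, and 1 was higher at that p without P2 resected replicate 3 and 0 were with the genes detected as a covariate. The actin crosslinker Palld was higher by 0.70 ± 0.18 (DESeq2 adjusted p = 0.0604) and smooth muscle actin Acta2 by 0.56 ± 0.26 (edgeR unadjusted p = 0.0497, adjusted p = 0.975). Acta2 lay between 245 and 811 CPM in sham and between 381 and 1463 CPM in resected libraries, with the high values in P2 resected replicates 2 and 3. The fibroblast identity list had 1 of 21 genes higher (Vim, vimentin) and 1 lower (Scara5), and a median of 0.01, with 5 higher and 4 lower without both sham libraries numbered 1. Tcf21 differed by -0.25 ± 0.19 (edgeR unadjusted p = 0.208) and Pdgfra by 0.06 ± 0.25, whose sign turned with 4 of the 6 sham libraries left out in turn.

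**Figure D4:**
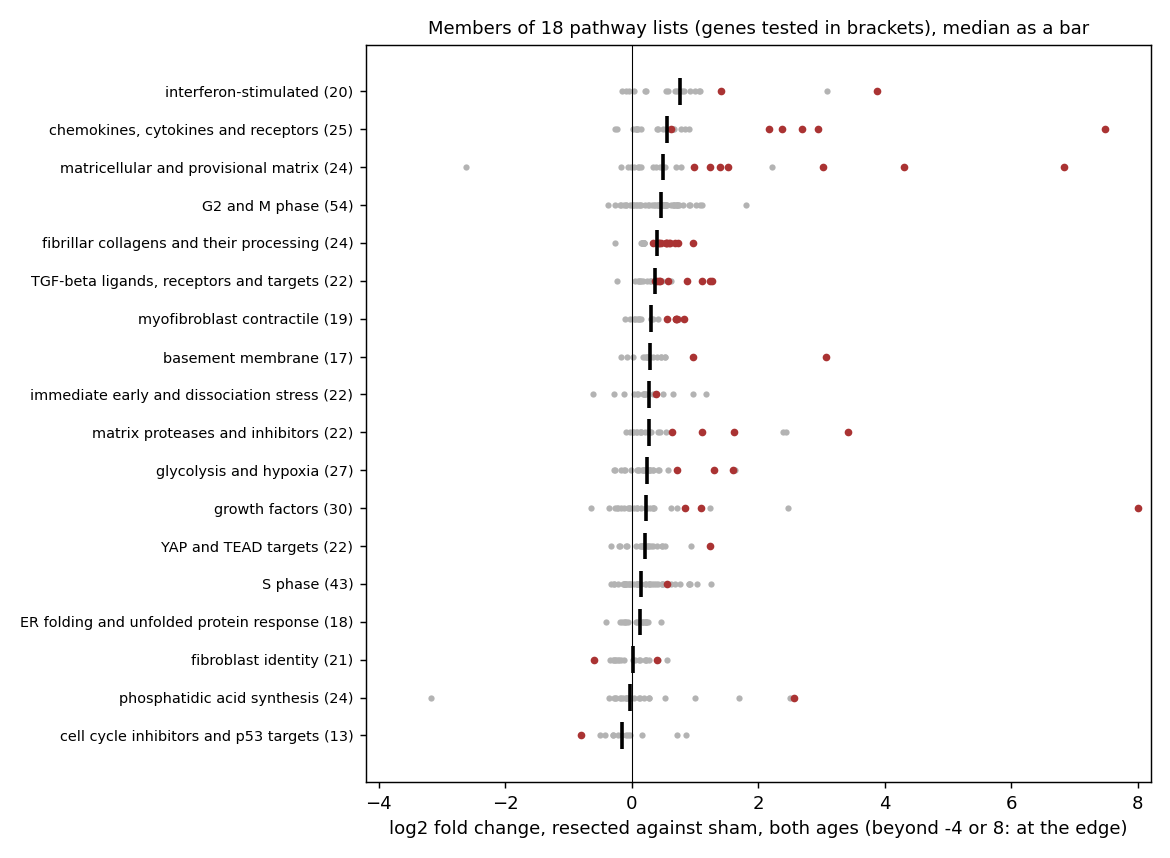
The log2 difference, resected minus sham over both ages, of each tested member of 18 pathway lists; each dot is 1 gene, red where the unadjusted edgeR p was under 0.05, and the bar is the median of the list, with values above 8 drawn at the edge. The collagen, TGF-beta and matricellular lists have medians of 0.39, 0.37 and 0.50, against 0.02 over all genes tested.

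Hp, the acute-phase protein haptoglobin, lay at 0, 2.29 and 0.714 CPM in P2 sham and at 12.6, 44.3 and 26.8 CPM in P2 resected libraries. At P10 it lay at 8.64, 2.38 and 5.86 CPM in sham and at 71.8, 17.4 and 432.5 CPM in resected libraries. Its groups did not overlap, P10 resected replicate 3 held 59.1% of the counts in the 12 libraries, and the log2 difference was 4.86 ± 0.82 (edgeR adjusted p = 0.193, from 3.1e-15 to 0.571 over its 23 fits; DESeq2 adjusted p = 0.000238). Lcn2, the iron-binding lipocalin-2, was at or under 0.943 CPM in every sham library and between 0 and 156 CPM in resected libraries, with 79.1% of counts in P10 resected replicate 3 (DESeq2 adjusted p = 0.00589, called in 10 of 12 fits with a library left out and lost with the replicate block, at 0.163). Of 20 interferon-stimulated genes 2 were higher and none lower, beside 3.31% and 1.4% of all genes. The count was 0 without P10 sham replicate 2 and with the replicate block, 4 without P10 resected replicate 2 and 10 with the genes detected as a covariate. The median of the list was 0.76, -0.14 without P10 resected replicate 3 and 2.39 with that covariate.

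Marco, a macrophage scavenger receptor, was at 0 counts in all 6 sham libraries and in all 6 baseline libraries. In resected libraries it lay at 8.86, 1.02 and 0.709 CPM at P2 and at 1.28, 0.315 and 1.08 CPM at P10. Every resected library was above 0, with the highest value in P2 resected replicate 1, which held 65% of its counts. It was at least 83.6-fold higher after resection when 3 counts over the sham group are taken as the floor, and at least 34.8-fold without that library (edgeR adjusted p = 0.301, from 0.000505 to 1 over its 22 fits; DESeq2 adjusted p = 3.58e-05). Pdgfc, a platelet-derived growth factor ligand, was also at 0 in all sham libraries and at least 80.3-fold higher, from 0 to 4.22 CPM in resected libraries, and the baseline libraries held 70 counts of it. These floors cover counting error only. Both genes passed the filter through their resected counts alone, in libraries that also detected more genes. Their floors and p-values are therefore a description.

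Macrophage markers were measured beside these genes. Of 19 tested markers, 4 were higher (Lyz2, Cd14, Itgam and Cd68) and none lower, beside 3.31% and 1.4% of all genes, with a median of 0.89, and neither edgeR nor DESeq2 called any. The count was 2 without P2 sham replicate 1 and 0 with the genes detected as a covariate and with the replicate block. The summed level of the list ran from 11.6 to 225 CPM in P2 sham and from 87.8 to 519 CPM in P2 resected libraries, and from 130 to 434.5 CPM and from 93.2 to 1245 CPM at P10. The groups overlap at both ages. In P10 resected replicates 1, 2 and 3 the sums were 539, 1245 and 93.2 CPM and Spp1 stood at 107.5, 210 and 26.1 CPM, the same order, with the last sum below every P10 sham library. In P2 resected replicates 1, 2 and 3 the sums were 519, 240 and 87.8 CPM and Spp1 stood at 36.4, 123 and 18.3 CPM, so that the lowest library was the same for both and the highest was not. Of the markers of alternatively activated macrophages 2 of 6 tested were higher, Il4ra among them, and 1 of the 10 listed was at 0 in all 12 libraries. The part of macrophage RNA in the Spp1 and Marco results was not tested. Neutrophil markers had 5 of 11 tested and 1 higher (Mpo), endothelial markers 1 of 12 (Flt1), epicardial markers 1 of 10 (Lrrn4), mural markers 1 of 10 (Myh11), cardiomyocyte markers 1 of 12 (Myh7), Schwann cell markers 1 of 3 (Mbp), erythroid markers none of 11 and lymphocyte markers none of 2, with 3 of the 7 listed at 0 throughout. The neutrophil, endothelial and epicardial counts were each 1 to 3 with a library left out and 0 with the genes detected as a covariate. The mural count was 0 without P2 sham replicate 3, 3 without P2 sham replicate 1, 4 with voom and 6 without both sham libraries numbered 1. Of 22 immediate early genes, induced also by dissociation, 1 was higher (Dusp1), and 6 without P2 sham replicate 1, 0 without P2 sham replicate 3, 11 with voom and 14 without both sham libraries numbered 1. The median of the endothelial list was 0.77, and 0.16 without P2 resected replicate 1, 1.22 without P2 sham replicate 3 and -1.33 with the genes detected as a covariate. Chemokines, cytokines and receptors had 6 of 25 genes higher and none lower, beside 3.31% and 1.4% of all genes, Cx3cl1 and Cxcl13 among them. The count was 3 without P2 resected replicate 3, 9 without P2 sham replicate 1 and 12 without both sham libraries numbered 1.

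Ptprm, a receptor tyrosine phosphatase of cell contacts, was higher by a similar amount in every resected library. It lay at 19.5, 18.1 and 20.4 CPM in P2 sham and at 42.8, 49.9 and 41.7 CPM in P2 resected libraries. At P10 it lay at 23.3, 28.4 and 33.9 CPM in sham and at 53.3, 44.9 and 51.1 CPM in resected libraries. The 6 resected libraries lay between 41.7 and 53.3 CPM, above all sham libraries, while baseline libraries ran from 13.7 to 115 CPM. The log2 difference was 1.01 ± 0.17 (edgeR adjusted p = 0.193, from 0.0366 to 1 over its 23 fits; DESeq2 adjusted p = 6.02e-06, and 0.356 with all 18 libraries in the fit). Slc2a1, the glucose transporter, was higher by 1.30 ± 0.31 (DESeq2 adjusted p = 0.0245, called in 4 of 12 fits with a library left out and 0.0519 with the replicate block). The glycolysis list had 3 of 27 genes higher, beside 3.31% of all genes, and the count was 7 when P2 resected replicate 1 was left out and 1 when replicate 3 of that group was. Among growth factors 3 of 30 were higher, Pdgfc, Vegfd and Pdgfa, beside the same 3.31%, and 6 without P10 sham replicate 1 and 8 with voom. Without both sham libraries numbered 1 the glycolysis count was 6 of 28 and the growth factor count 8 of 31. Of the endoplasmic reticulum folding list none of 18 passed, with 5 higher without both of those sham libraries, and of phosphatidic acid synthesis 1 of 24.

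None of 54 G2 and M phase genes and 1 of 43 S phase genes (Rrm2, higher) was at an unadjusted p under 0.05, beside 3.31% of all genes higher and 1.4% lower. The S phase count was 0 to 3 higher with a library left out, and 4 without both sham libraries numbered 1. The G2 and M count was 7 higher without P2 sham replicate 1, 4 with the genes detected as a covariate and 11 without both sham libraries numbered 1. Over all genes, the covariate fit had 247 of 15379 higher and the last fit 2234 of 15741. The median of the G2 and M list was -0.12 at P2 and 1.10 at P10, so the shared median of 0.46 covers opposite signs. Cdk1 lay between 10.4 and 261 CPM in sham and between 16.1 and 164.5 CPM in resected libraries and differed by 0.36 ± 0.39, or -0.42 at P2 alone. Of 13 cell cycle inhibitors and p53 targets, 1 was lower, Eda2r, by -0.81 ± 0.28, beside 1.4% of all genes. Without both sham libraries numbered 1, 4 were lower and 1 higher, beside 1690 lower and 2234 higher of all 15741 genes.

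DESeq2 called 2 genes lower after resection. With the replicate block, whose numbers do not pair the libraries, the DESeq2 adjusted p was 0.0615 for Adal and 0.0951 for Arl4a. Adal (chromosome 2, 121140428 to 121156680, plus strand), a deaminase of N6-methyl-AMP, lay at 27.5, 31.2 and 36.5 CPM in P2 sham and at 17.2, 19.1 and 18.4 CPM in P2 resected libraries. At P10 it lay at 36.9, 22.2 and 19.7 CPM and at 12.8, 15.1 and 14.8 CPM. The groups did not overlap at either age, the log2 difference was -0.84 ± 0.20 (edgeR adjusted p = 0.379, from 0.214 to 1 over its 23 fits; DESeq2 adjusted p = 0.0162), and 6 of 12 fits with a library left out called it. Arl4a, a small GTPase, lay between 41.3 and 57.3 CPM in sham and between 29.3 and 45.6 CPM in resected libraries and differed by -0.59 ± 0.15 (DESeq2 adjusted p = 0.0297, called in 3 of 12, and 0.286 with all 18 libraries in the fit). Baseline libraries ran from 12.8 to 24.1 CPM for Adal and from 16.7 to 46.7 CPM for Arl4a, which overlaps both surgeries. The retromer gene Vps35 was lower by -0.56 ± 0.15 (DESeq2 adjusted p = 0.0648) and Mturn by -0.70 ± 0.18 (DESeq2 adjusted p = 0.0634).

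The ages shared the direction of the effect for part of the genes. Among all genes tested, 57.7% had the same sign of difference at P2 and P10 (8875 of 15379). Of 693 genes with an unadjusted p under 0.05 at P2, 71.1% had the same sign at P10, and of 651 at P10, 63.1% had the same sign at P2. Of the 91 at that threshold at both ages, 87.9% did, and the ages share no library. Of the genes reported by the study as changed at P2, a list the study chose on these samples, 19 of 24 tested had the same sign at P10 and 4 had an unadjusted p under 0.05 there. Of those it reported at P10, 23 of 35 had the same sign at P2 and 4 were at that threshold. Within P2 and within P10 edgeR called 0 genes each, and DESeq2 called 35 and 46. For the difference between ages edgeR called 0 genes, with 456 at an unadjusted p under 0.05, and DESeq2 called 11, among them the chemokine Cx3cl1 (0.86 at P2 and 4.64 at P10 by edgeR, DESeq2 adjusted p = 0.0399). Of the genes above, Spp1 differed between the ages by 1.26 (edgeR unadjusted p = 0.49), so that a difference between P2 and P10 was not detectable for it.

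**Figure D5:**
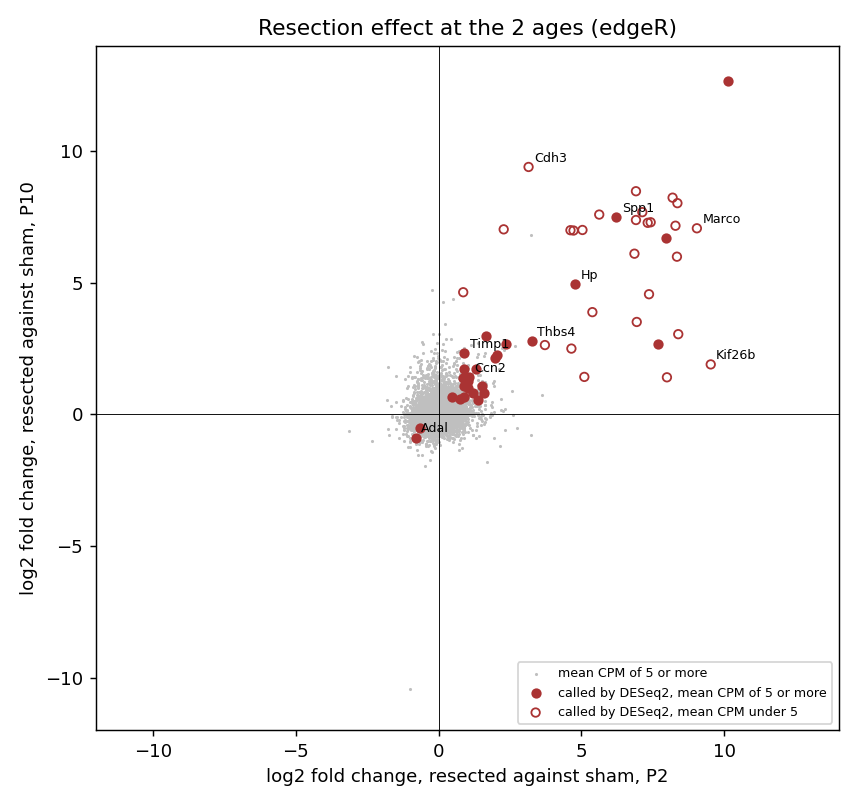
The log2 difference, resected minus sham, at P2 (horizontal) and at P10 (vertical) for genes with a mean of at least 5 CPM in grey, with genes called by DESeq2 in red, filled at a mean of at least 5 CPM and open below it; for genes without a sham count the fitted value depends on the prior count and is no bound. Of the 54 called genes, 31 did not overlap between surgeries at either age, beside 0.598% of all genes tested higher and 0.202% lower. The calls and the overlap rest on the same 12 libraries, and 60% of the 10634 grey genes have the same sign at both ages.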

How the data were processed

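GFP+ Tcf21-lineage cells were sorted, and libraries were made from 1 ng of RNA by SMARTer pre-amplification and sequenced from 1 end, 75 nt a read. According to the methods and the submitters' processing notes, the authors trimmed reads with fastp 0.20.0, aligned them with STAR 2.7.0f to GRCm38.p6, and counted them over exons by gene name without strand with featureCounts (Subread 1.6.4). The deposited table holds raw counts per gene symbol for 18 libraries; 0 columns belonged to no sample. The columns of P2 and P10 resected replicate 1 are headed by bare numbers, which are the titles of those samples in the labels. Components came from rlog values of the 500 most variable genes. Reads carry no molecular identifiers.

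Counts of the 12 surgery libraries were filtered with filterByExpr (minimum count 10, total 15), scaled by TMM and tested in edgeR 4.0.16 (R 4.3.3) by the quasi-likelihood test with age and surgery as terms, and with 1 mean per group for each age and their difference. P-values were adjusted by Benjamini-Hochberg over all genes tested, with calls at an adjusted p under 0.05. DESeq2 1.42.0, limma 3.58.1 voom, other scalings, filters and samples, a replicate block, the number of genes detected as a covariate and each library left out were alternatives. Library measures were compared by a two-sided exact permutation within age (400 arrangements). Differences are log2, resected minus sham, with SE. The pipeline was tested on counts simulated with a smaller spread between libraries than that fitted here. That test gives no sensitivity for these data. Coordinates are from GENCODE M21, on the same genome build as the files. The named genes are those of smallest p or largest change among called genes, or of smallest p up to 15 a direction, the 3 members of smallest p of each list, called list members and a few genes fixed by name; Lox, Smad7 and a few other list members were named after their values were seen. Genes, lists and tests were chosen with earlier results of these data known. Values of a few genes are not reported here.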

Additional observations from a re-analysis of the deposited data

Results flagged for a closer look

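In 11 of 195 arms of 6 libraries (log2 CPM, centred within age), 1 library lay farther from the other 5 than Dixon's 95% critical value allows for the ratio of its gap to the range. The libraries were P10 sham replicate 3 for Lcn2 (0.641) and Cxcl14 (0.631), P2 sham replicate 3 for Frem2, Gm37558, Mpo and Gm42502 (0.667 each), P10 sham replicate 1 for Mx1 and Pcdhga8 (0.667 each), P10 sham replicate 2 for Kif26b (0.655), P2 sham replicate 1 for Tmtc2 (0.667) and P10 resected replicate 1 for Dscam (0.667). In every arm at 0.667 a single library held all counts, which fixes the ratio, and for Lcn2, Cxcl14 and Kif26b the P2 sham libraries were all at 0, so the usual chance rate of about 1 in 20 arms does not apply to these arms.

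Some genes with no count in the 6 sham libraries had counts in the 6 un-manipulated baseline libraries, which enter no comparison here. Spire2 had 15 counts there, Pdgfc 70, Lrrn4 70, Gbp4 151, Shisa3 45, Car3 24, Gm26742 107, Gm49628 65 and Col28a1 18, each above the 3 counts that a count of 0 allows.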

How the results depend on the processing

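The 0 calls of edgeR over both ages became 57 with no filter on low counts (56 higher, 1 lower) and 54 with DESeq2 (52 higher, 2 lower), and 0 or 1 with a library left out: Spp1 without P2 sham replicate 2, Cdh3 without P2 sham replicate 3 and Ccn2 without P2 resected replicate 1, higher each time. Same-numbered libraries of the 2 surgeries did not deviate together (correlations from -0.152 to 0.17), so the numbers do not pair them; with the replicate block edgeR called 1 gene, Spp1, higher, and DESeq2 110. Genes at an unadjusted p under 0.05, 724 in the report, numbered 2208 with no filter, 2663 with voom and quality weights, 423 with the genes detected as a covariate, and 618 to 1894 with a library left out, the highest without P2 sham replicate 1 and 1473 without P10 sham replicate 1. Without both of these, chosen after seeing the data, edgeR called 1016 genes (605 higher, 411 lower), 3924 were at an unadjusted p under 0.05 and DESeq2 called 2199. Of genes at that p, 70.3% were higher in the report, 53.9% at a mean of at least 5 CPM, 58.4% with the covariate and 83.6% with the replicate block. DESeq2 called 21 genes at a mean of at least 5 CPM and 27 to 231 with a library left out, the lowest without P10 resected replicate 1 and the highest without P2 sham replicate 1; 101 were called without P10 sham replicate 1. At a mean of at least 5 CPM, 68 genes did not overlap. Within P2, DESeq2 called 35 genes and edgeR 0 to 4 with a library left out; within P10, 46 and 0 to 4; for the difference between ages, 11 and 0 to 3. Component 1 from log2 CPM separated the surgeries by 1.23 SD (exact permutation p = 0.045), but need not be the same axis as component 1 from rlog values. With the genes detected as a covariate, which itself separates the surgeries without overlap, Lama5 (-0.225), Cd14 (-0.257), Flt1 (-0.281) and Postn (-0.484) turned lower. Pdgfra ran from -0.0452 to 0.318 and Postn from -0.0133 to 0.292 with a library left out, and Cdk1 was -0.212 with no block for age and -0.419 at P2 alone. The cause of these changes was not tested. Of 2641 values of 103 genes under alternatives, 11 turned sign and 93 passed the threshold that the reported value missed. With 3 libraries a group and uneven low counts, differences of genes under 1 CPM rest on few counts.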
